A study of Mus musculus with 6 samples.

Results

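The 2-5A (oligoadenylate) synthetase genes *Oas1a*, *Oas1b*, *Oas1c*, *Oas1g*, *Oas2*, *Oas3*, *Oasl1* and *Oasl2* were examined in resting bone-marrow-derived macrophages (BMDMs) with and without CITED2. The 8 genes were taken by their symbols from a matrix of 22248 genes, and all 8 were listed once and measured in every library. BMDMs were grown from marrow of C57BL/6 mice in medium with macrophage colony-stimulating factor and received no further stimulus. The 3 control libraries came from Lyz2cre mice, which carry Cre recombinase at the *Lyz2* locus of myeloid cells and an intact *Cited2*. The 3 CITED2-deficient libraries came from Cited2fl/fl:Lyz2cre mice, in which the same Cre removes the floxed *Cited2* alleles. Both groups therefore carry Cre. The labels give an age of 10 weeks, and the methods of the study a younger one. The descriptions do not say whether each library is a separate mouse. The p-values therefore set the group difference against variation between libraries, which may not be variation between mice. Values are FPKM, the fragments per kilobase of transcript scaled to the fragments of the library.

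Oligoadenylate synthetases are interferon-induced enzymes that bind double-stranded RNA, such as that of replicating viruses, and then join ATP into short oligoadenylates. The oligoadenylates serve as second messengers of the antiviral response. Mice have many *Oas1* copies, of which *Oas1a* and *Oas1g* encode active enzymes, together with *Oas2*, *Oas3* and the *Oas*-like genes *Oasl1* and *Oasl2*, whose proteins end in ubiquitin-like domains. The genes are induced through an interferon-stimulated response element (ISRE), a DNA motif bound by a complex that includes STAT2 and IRF9.

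All of the genes lie on chromosome 5 in 2 groups. *Oasl2* and *Oasl1* occupy chr5:114896936-114937915 (mm10), and the other 6 occupy chr5:120730333-120907521, a stretch of 177 kb. RefSeq promoter windows (GRCm38.p6, the same assembly as mm10) were available for 6 of the 8 genes and were searched on both strands for the ISRE letters (GAAA, any 2 bases, GAAA) over the 250 bases before each start. The letters were found before *Oas1a*, *Oas1g*, *Oas1c* and *Oas3*, and in the same 250 bases of 2.98% of all 32851 windows. The sequences that hold them are shown because 3 of them contain the same run of 16 bases, in which 2 ISRE matches overlap. They are chr5:120907526-120907570 on the minus strand for *Oas1a*, chr5:120887614-120887656 on the minus strand for *Oas1g*, the whole stretch chr5:120812515-120812634 on the plus strand between the *Oas1c* and *Oas1b* starts, and chr5:120777700-120777759 on the minus strand for *Oas3*. Capitals mark the ISRE matches.
Oas1a: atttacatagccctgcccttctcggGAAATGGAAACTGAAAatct
Oas1g: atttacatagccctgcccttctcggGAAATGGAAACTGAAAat
Oas1c-Oas1b: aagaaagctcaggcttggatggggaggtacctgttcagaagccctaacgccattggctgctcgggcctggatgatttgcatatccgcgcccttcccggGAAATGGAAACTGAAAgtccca
Oas3: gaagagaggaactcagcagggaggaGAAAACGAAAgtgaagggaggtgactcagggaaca

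The run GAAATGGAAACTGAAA ended 5 bases before the RefSeq start of *Oas1a* and 3 bases before that of *Oas1g*. *Oas1c* and *Oas1b* are transcribed away from each other from starts 120 bases apart, and 1 copy of the run lay between them. It was 7 bases from the *Oas1b* start and 99 bases from the *Oas1c* start. Across the genome only 7 of the 32851 windows (0.0213%) held the run, those of *Oas1a*, *Oas1g*, *Oas1c* and the apolipoprotein genes *Apol9a* and *Apol9b*. In *Oas3* the match was a different sequence, 66 to 75 bases before the start. No ISRE letters were found in the windows of *Oasl1* and *Oasl2*, and none in that of the interferon regulatory factor gene *Irf7*. The search used exact letters near RefSeq starts only, so it can miss elements that differ from them or lie elsewhere. A match describes letters and not binding, and transcription factor binding was not measured.

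*Cited2* fell from 75.5 ± 3.79 to 8.01 ± 1.10 FPKM (SD, n = 3 each; log2 fold change -3.09, adjusted p = 6.57e-09 from limma), in the direction of the labels in every library. The depth recovered from the FPKM was 17289286 to 18952077 fragments in control and 22583995 to 26100410 in CITED2-deficient libraries. Of the 8 macrophage markers 1 was higher, 5 were lower and 2 did not pass (16.7% higher and 34.6% lower among all tested genes), and their summed FPKM was 5624 to 5694 in control and 5287 to 5367 in CITED2-deficient BMDMs. *Lyz2*, the locus that drives Cre, was among the lower ones (from 31.3 ± 1.03 to 9.75 ± 0.333). Summed fibroblast markers were 42.4 to 50.6 in control and 171, 170 and 540 in CITED2-deficient libraries, the highest value being that of replicate 1, with 6 of 6 tested markers higher (16.7% of all tested genes), of which *Pdgfrb* reached the FPKM filter only through the CITED2-deficient group. Granulocyte precursor markers summed to 649 to 718 in control and 499 to 594 in CITED2-deficient libraries. Of the 7 tested 6 were lower (34.6% of all tested genes) and *S100a9* did not pass. Mast cell and eosinophil markers summed to 7.38 to 10.4 against 0.878 to 2.30, mostly *Prg2*, the only 1 of them tested. Red cell and platelet precursor markers went from 313 to 341 in control to 74.3 to 84.6, nearly all of it *Pf4*. *Itga2b* was higher (from 2.90 ± 0.319 to 4.08 ± 0.707). *Hba-a1* and *Hbb-bs* were nearly absent in control already (means of 0.221 and 0.325). That sum therefore describes *Pf4* and not these cell types. Dendritic and lymphoid markers summed to 2.09 or less in every library. In bulk RNA, fewer cells of a type and less RNA per cell cannot be told apart. The part of these shifts in the results was not tested.

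The synthetase genes were higher in CITED2-deficient BMDMs without exception. All 8 passed the threshold (adjusted p below 0.05 in limma on log2(FPKM + 1), among the 11687 genes whose mean FPKM reached 1), while 16.7% of all tested genes were higher past it. In 8 of 8 the lowest CITED2-deficient value exceeded the highest control value, against 19.0% of tested genes. With a rise of at least 2 fold on this scale the count was 7, against 3.72% of tested genes. The median log2 fold change was 1.81 in the family and -0.10 over all tested genes. The order of the changes, from *Oasl1* to *Oas1c*, spanned 3.42 to 0.995. The plot of FPKM by library shows the separation of the groups for each gene.

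**Figure D1:**
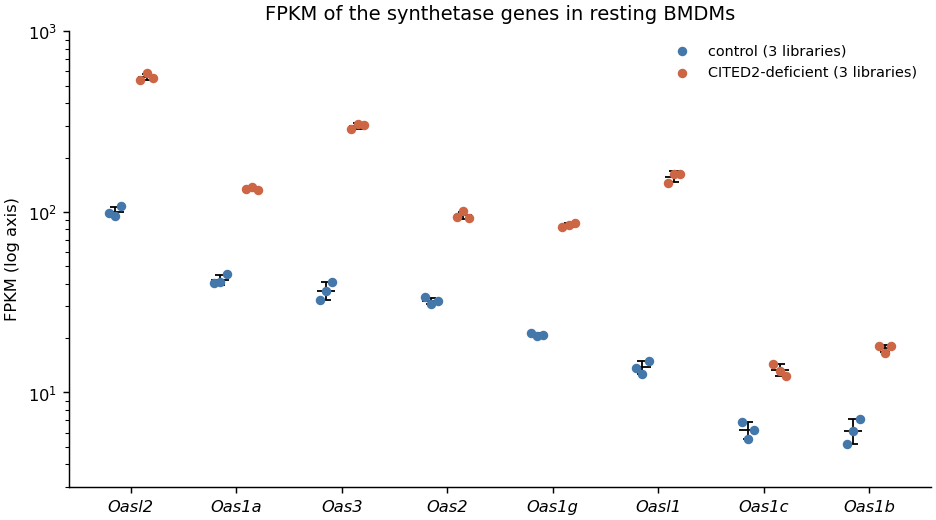
FPKM (log axis) of the 8 synthetase genes, ordered by their control level, in 3 control and 3 CITED2-deficient libraries; points are libraries and black bars the mean ± SD. Every synthetase gene is higher in all CITED2-deficient libraries, from 2.15 times for *Oas1c* to 11.4 times for *Oasl1*.

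*Oas1a* (ENSMUSG00000052776, chr5:120896256-120907521) encodes an active synthetase of the smallest kind. The control libraries had 40.3, 40.7 and 45.3 FPKM and the CITED2-deficient libraries 134, 137 and 132, in the order of their replicate numbers, as for all genes below. The lowest CITED2-deficient value was far above the highest control value, and the mean rose from 42.1 ± 2.76 to 135 ± 2.62 (SD, n = 3 each), or 3.20 times. The log2 fold change was 1.66 (standard error, SE, 0.047; limma adjusted p = 1.01e-08). *Oas1g* (ENSMUSG00000066861, chr5:120876142-120887613), its close relative, had 21.3, 20.5 and 20.8 in control and 82.3, 85.0 and 86.8 in CITED2-deficient libraries. These groups were as clearly apart, with a log2 fold change of 1.97 (SE 0.039, limma adjusted p = 1.12e-09). The transcripts of this pair are similar. Of all 75-base stretches in the *Oas1a* transcript 47.6% also occur in *Oas1g*, and 36.9% of those of *Oas1g* occur in *Oas1a*, so their separate values are uncertain where fragments could have been assigned to either. Their ratio changed too, with *Oas1a* at 1.90 to 2.17 times *Oas1g* in control and 1.52 to 1.63 times in CITED2-deficient libraries.

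*Oas1b* (ENSMUSG00000029605, chr5:120812635-120824163) is the flavivirus resistance gene of mice, whose C57BL/6 allele carries a premature stop codon, and the annotation lists it as a polymorphic pseudogene. Its RNA was nevertheless present, at 5.18, 6.12 and 7.15 in control and 18.1, 16.6 and 18.1 in CITED2-deficient libraries. The groups did not overlap, and the log2 fold change was 1.39 (SE 0.098, limma adjusted p = 4.15e-06). *Oas1c* (ENSMUSG00000001166, chr5:120800194-120812514), its divergent neighbor, encodes a protein without synthetase activity. It had 6.82, 5.52 and 6.22 in control and 14.4, 13.1 and 12.4 in CITED2-deficient libraries, a log2 fold change of 0.995 (SE 0.087, limma adjusted p = 1.7e-05). These were the least abundant of the 8 genes and showed the smallest rises. They rested on 111 to 191 fragments per control library and 344 to 664 per CITED2-deficient library. In control libraries *Oas1b* was 0.759 to 1.15 times *Oas1c*, and in CITED2-deficient libraries 1.25 to 1.46 times. Read in the transcribed direction, no 75-base stretch of *Oas1b* occurs in the transcripts of another annotated gene, and 37 of 2459 of those of *Oas1c* do.

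*Oas2* and *Oas3* encode larger synthetases built from repeated units and lie next to each other. *Oas2* (ENSMUSG00000032690, chr5:120730333-120749853) had an FPKM of 33.6, 31.0 and 32.1 in control and 93.4, 101 and 92.9 in CITED2-deficient libraries. *Oas3* (ENSMUSG00000032661, chr5:120753098-120777661), the largest enzyme of the family, had 32.6, 36.3 and 41.0 in control and 286, 308 and 301 in CITED2-deficient libraries. The control ranges of these neighbors overlapped, while in CITED2-deficient libraries they were far apart. The log2 fold change was 1.54 for *Oas2* (SE 0.046, limma adjusted p = 1.37e-08) and 3.00 for *Oas3* (SE 0.071, limma adjusted p = 3.11e-09). *Oas3* was 0.969 to 1.28 times *Oas2* in control libraries and 3.05 to 3.24 times in CITED2-deficient libraries. Read in the transcribed direction, no 75-base stretch of either gene is shared with the transcripts of another gene. Antisense sharing was not searched.

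The *Oas*-like genes held the largest and the third largest rise. *Oasl1* (ENSMUSG00000041827, chr5:114923240-114937915) encodes a protein without synthetase activity that is known in mice to restrain translation of *Irf7* mRNA. Its FPKM was 13.7, 12.7 and 14.9 in control and 145, 163 and 163 in CITED2-deficient libraries, a log2 fold change of 3.42 (SE 0.066, limma adjusted p = 1.12e-09). Among all tested genes only 14 rose more. *Oasl2* (ENSMUSG00000029561, chr5:114896936-114912234), which encodes an active synthetase, had 98.9, 94.6 and 107 in control and 539, 585 and 551 in CITED2-deficient libraries. By FPKM it was the most abundant gene of the family in both groups, with a log2 fold change of 2.47 (SE 0.049, limma adjusted p = 1.13e-09). The mean transcript lengths that match the FPKM were 1328 bases for *Oasl2* and 2506 for *Oas3*. In fragments these 2 genes were close in CITED2-deficient libraries, at 18193, 17537 and 19083 for *Oasl2* and 18214, 17415 and 19674 for *Oas3*. *Oasl2* was 7.17 to 7.43 times *Oasl1* in control and 3.38 to 3.73 times in CITED2-deficient libraries. Neither gene shares a 75-base stretch with the transcripts of another gene read in the transcribed direction.

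Unequal rises changed the make-up of the family. The summed FPKM of the 8 genes was 252, 247 and 275 in control and 1312, 1408 and 1357 in CITED2-deficient libraries, a ratio of means of 5.26. The groups did not overlap, and the exact two-sided permutation test gave p = 0.1, the smallest that 3 against 3 libraries allow. The order of levels in control was *Oasl2*, *Oas1a*, *Oas3*, *Oas2*, *Oas1g*, *Oasl1*, *Oas1c* and *Oas1b*. Neighbors overlapped there for *Oas1a* with *Oas3*, *Oas3* with *Oas2*, and *Oas1c* with *Oas1b*. In CITED2-deficient libraries the order was *Oasl2*, *Oas3*, *Oasl1*, *Oas1a*, *Oas2*, *Oas1g*, *Oas1b* and *Oas1c*, and no neighbors overlapped. The order, the shares and the size of ratios between genes depend on the transcript length by which FPKM divides each gene.

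*Oasl2* made up 38.8% ± 0.520 of the summed FPKM in control and 41.1% ± 0.469 in CITED2-deficient libraries (SD, n = 3 each). *Oas3* went from 14.2% ± 1.09 to 21.9% ± 0.202 and *Oasl1* from 5.33% ± 0.167 to 11.5% ± 0.495. The share of the other 5 genes was lower in CITED2-deficient libraries, with *Oas1a* going from 16.3% ± 0.284 to 9.91% ± 0.265 and *Oas2* from 12.5% ± 0.809 to 7.04% ± 0.169. The coefficient of variation of the FPKM between libraries was at most 7.87% for each gene in CITED2-deficient BMDMs. In control BMDMs it ran from 1.84% for *Oas1g* to 16.03% for *Oas1b*.

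**Figure D2:**
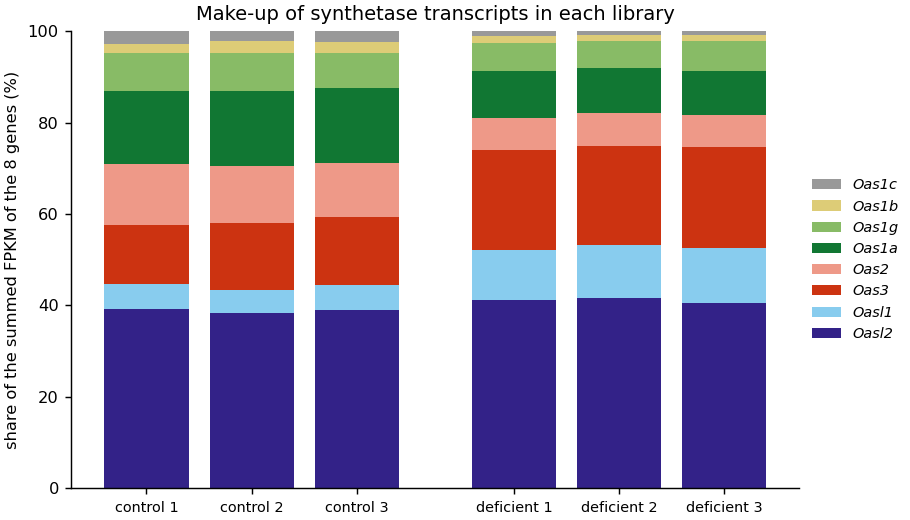
Share (%) of each gene in the summed FPKM of the 8 synthetase genes, 1 bar per library. *Oas3* and *Oasl1* take a larger share in the 3 CITED2-deficient libraries (21.9% and 11.5% on average) than in the 3 control libraries (14.2% and 5.33%), and *Oas1a* and *Oas2* a smaller one.

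Of 3 genes linked to the oligoadenylate pathway only *Akap7* passed the threshold in limma on log2(FPKM + 1). *Akap7*, whose product can degrade oligoadenylates, had 10.8, 11.4 and 10.7 in control and 6.37, 8.57 and 7.10 in CITED2-deficient libraries (log2 fold change -0.53, SE 0.096, limma adjusted p = 0.00163). *Pde12*, another oligoadenylate-degrading enzyme (-0.031), and *Abce1*, a ribosome recycling factor also linked to this pathway (0.051), did not pass (adjusted p = 0.797 and 0.333 from limma, 95% intervals of -0.24 to 0.18 and -0.043 to 0.15). Of these 3 genes 0 were higher and 1 was lower past the threshold, against 16.7% and 34.6% of tested genes. That count of lower genes was near the share over all tested genes. *Akap7* was lower in every CITED2-deficient library, as were 40.9% of tested genes. After median-ratio scaling *Abce1* passed as higher (0.15) and *Pde12* changed sign (0.048).

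*Oas1h* was the only other *Oas1* copy listed and did not reach the FPKM filter. It was counted as 9, 10 and 9 fragments in control and 28, 26 and 28 in CITED2-deficient libraries. When every listed gene was tested it passed as higher, with a log2 fold change of 0.41 that the pseudocount understates (adjusted p = 0.00628 from limma; 9.90% of the 22248 genes were higher past the threshold in that test). *Oas1d*, *Oas1e* and *Oas1f* were not analysed here.

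Other sensors of foreign or misplaced nucleic acid were mostly higher. Of 11 tested genes 9 were higher and 2 lower past the threshold in limma (16.7% and 34.6% of all tested genes), with a median log2 fold change of 1.16 against -0.10 for all tested genes. *Zbp1*, a sensor of Z-form nucleic acid that triggers cell death, had 13.4, 10.3 and 13.4 FPKM in control and 75.4, 91.5 and 85.4 in CITED2-deficient libraries (log2 fold change 2.68). The RIG-I-like receptors followed at 1.79 (*Dhx58*), 1.73 (*Ddx58*) and 1.72 (*Ifih1*), ahead of the double-stranded RNA kinase *Eif2ak2* at 1.22, the RNA editing enzyme *Adar* and the endosomal receptor *Tlr3* at 1.16 each. *Mb21d1*, which encodes the DNA sensor cGAS, a structural relative of the synthetases, was higher by 0.76 and its adaptor *Tmem173* (STING) by 0.24. The lower genes were *Prkra*, an activator of the *Eif2ak2* product, at -0.51, and *Mavs*, the adaptor of the RIG-I-like receptors, at -0.20. The call of *Mavs* was lost after quantile normalization (-0.13) and after median-ratio scaling (-0.10).

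Interferon beta was barely detected. *Ifnb1* was counted as 0 fragments in each control library and as 5, 2 and 5 fragments in CITED2-deficient libraries. It passed as higher when every listed gene was tested (adjusted p = 0.0119 from limma), as did 9.90% of the 22248 genes. *Ifnb1* entered that test only through the CITED2-deficient group, so its call gives no support. The 4 named *Ifna* genes were not analysed here. The receptor chains were lower, *Ifnar1* with 118, 115 and 119 against 93.5, 101 and 96.9 FPKM (log2 fold change -0.27, adjusted p = 0.00027 from limma) and *Ifnar2* with -0.30 (adjusted p = 4.65e-05 from limma). Of the 12 genes of interferon signaling 7 were higher, 2 were lower and 3 did not pass in limma, with a median log2 fold change of 0.50 (16.7% higher, 34.6% lower and a median of -0.10 over all tested genes). *Irf7*, the interferon regulatory factor whose mRNA *Oasl1* protein restrains, had 74.2, 66.4 and 80.4 FPKM in control and 775, 839 and 835 in CITED2-deficient libraries. Its log2 fold change of 3.46 stood next to that of *Oasl1* in the ranking of all tested genes, at ranks 14 and 15.

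*Stat2* and *Irf9*, which encode parts of the complex that binds the ISRE, were higher, with log2 fold changes of 2.10 and 0.67. The feedback inhibitors *Usp18* (2.30) and *Socs1* (0.74), *Irf1* (0.84) and *Irf2* (0.33) were also higher. *Socs1* reached the FPKM filter only through the CITED2-deficient group (0.587 against 1.67), so its call gives no support, and 6 signaling genes were higher at a mean FPKM of at least 5. *Irf3*, which acts before interferon is made, was lower (-0.39), as was the receptor kinase *Jak1* (-0.11), a call lost after median-ratio scaling (-0.0023) and without the variance trend. *Tyk2* (0.11), *Irf8* (-0.023) and *Socs3* (-0.064) did not pass, with 95% intervals of -0.0021 to 0.22, -0.11 to 0.061 and -0.33 to 0.20. *Irf8* and *Socs3* changed sign after median-ratio scaling (0.081 and 0.029) and without CITED2-deficient replicate 1 (0.016 and 0.075), *Socs3* also after quantile normalization (0.018). *Tyk2* passed after median-ratio scaling (0.21), after quantile normalization (0.17) and with limma-voom (0.11).

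**Figure D3:**
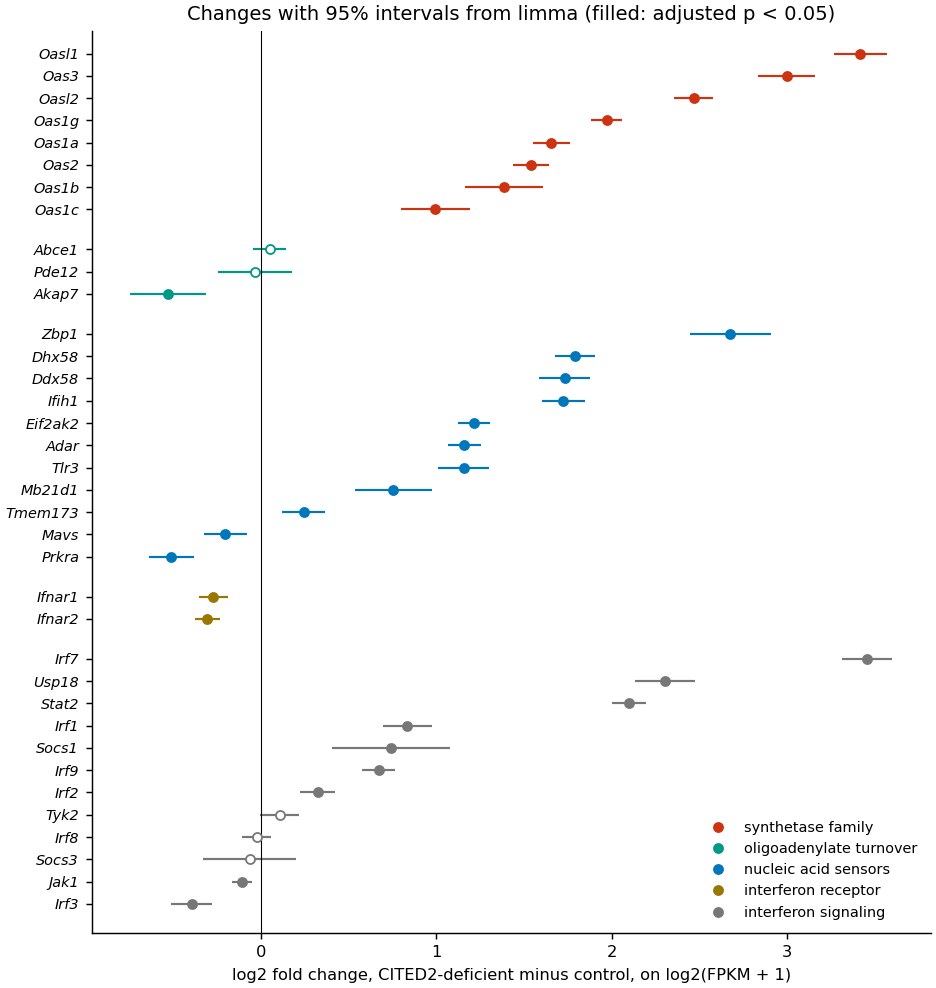
Log2 fold change (CITED2-deficient minus control, on log2(FPKM + 1)) with its 95% interval from limma for the tested synthetase genes and 4 related lists, with filled points past the threshold. All 8 synthetase genes lie at 0.995 or above, while both receptor chains are below 0.

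Genes around the synthetases were mostly lower or did not pass. Of 51 other annotated genes that start within 250 kb of a synthetase gene, 33 were listed and 20 were tested. In limma 1 of them was higher, 11 were lower and 8 did not pass, with a median log2 fold change of -0.20 (16.7% higher and 34.6% lower among all tested genes). On the *Oasl* side *Trpv4*, a calcium channel gene, had the largest fall at -0.99, and on the *Oas* side *Tpcn1*, a lysosomal channel gene 161 kb from *Oas2*, at -0.71. The exception was *Gm13822*, an annotated antisense gene that starts 37 bases from *Oasl1* on the other strand and overlaps its first bases. It was counted as 4, 9 and 3 fragments in control and 56, 16 and 34 in CITED2-deficient libraries (log2 fold change 1.40). Its mean FPKM was 0.858 in control and 4.06 in CITED2-deficient libraries, so it reached the filter only through the group where it was high, and its call gives no support. The libraries were stranded, but the sources used here do not say whether counting used the strand, so its fragments may belong to *Oasl1*. *Gm43068*, which lies within *Oas2* on the other strand, was counted as 9, 6 and 5 fragments in control and 25, 29 and 28 in CITED2-deficient libraries, with the same limit.

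**Figure D4:**
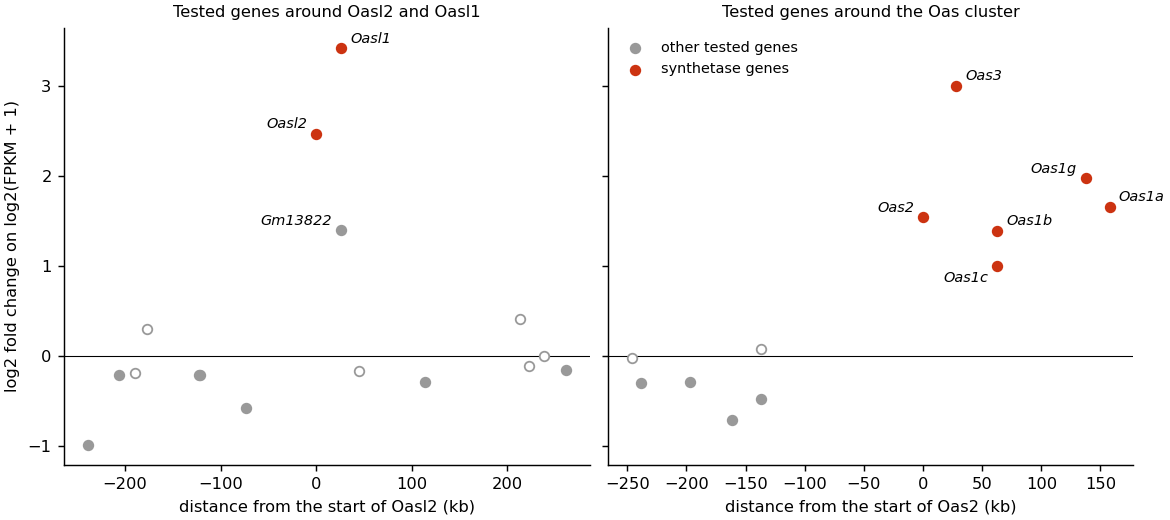
Log2 fold change of tested genes within 250 kb of a synthetase gene against distance (kb) from the start of *Oasl2* (left) or *Oas2* (right), with filled points past the threshold in limma. The synthetase genes (0.995 to 3.42) and the antisense gene *Gm13822* (1.40) stand above their neighbors, which lie between -0.99 and 0.41.

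The profile of the family over the 6 libraries was compared with those of the other tested genes, as the Euclidean distance between centered log2(FPKM + 1) values. The closest genes to the mean of the 8 synthetase genes were *Cd72* (0.060), *Ifi204* (0.061), *Xaf1* (0.11), *Stat2* (0.12) and *Ctnnd2* (0.14). *Cd72* encodes a C-type lectin receptor, *Ifi204* a DNA-binding interferon-induced protein, *Xaf1* a pro-apoptotic interferon-induced protein and *Ctnnd2* a delta-catenin. These genes had log2 fold changes of 2.04 to 2.10, a narrow range that follows from choosing them by closeness to the mean of the family. Among the synthetase genes *Oas1g* was nearest to the mean of the family (0.16) and *Oasl1* farthest from it (1.68). The distance is a description of these libraries, whose variation is mostly that between genotypes.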

How the data were processed

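Total RNA was depleted of ribosomal RNA, made into stranded libraries and sequenced. The authors aligned with STAR to mm10, and they name Cuffdiff with a GENCODE annotation as the source of the FPKM. Apart from the fragment check given below, how the deposited values per gene and library were computed was not examined. The sources used here give no tool versions. The FPKM were used as deposited. Multiplied by GENCODE vM21 transcript lengths averaged per gene, they came within 0.02 of whole fragments in all 6 libraries for 96.1% of 22239 matched genes, which gave the depth. How fragments with several matches were handled is not stated. Intervals and fragment numbers cover counting error or the spread between libraries only.

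limma 3.58.1 (R 4.3.3) was run on log2(FPKM + 1) of the 11687 genes whose mean FPKM reached 1. It used a variance trend, and Benjamini-Hochberg adjusted p-values were called at 0.05. The pseudocount understates changes of low genes. The Cuffdiff test needs alignments and was not repeated. The fit was also run on simulated data with far fewer changed genes than were called here, so nothing in these results rests on that run. The exact permutation test used scipy 1.17.1. Promoters came from RefSeq windows of 250 bases before to 50 after each start. The 75-base stretches came from GENCODE vM21 transcripts, compared in the transcribed direction only. Alternatives were pseudocounts of 0.1 and 0.5, median-ratio scaling, quantile normalization, a filter at a mean FPKM of 5 or none, no variance trend, a replicate block, each library left out and limma-voom on recovered fragments. Genes named are the synthetases, *Cited2*, related and marker lists, genes within 250 kb and the 5 nearest profiles. Some genes of these lists are not reported here and were left out of the counts. The genes and lists were chosen with earlier results of these data known. *Apol9a* and *Apol9b* were named after their values were seen.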

Additional observations from a re-analysis of the deposited data

How the results depend on the processing

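All 8 synthetase genes were higher past the threshold in limma under all 15 alternatives. Without each library in turn the log2 fold changes kept to 0.93 to 1.06 for *Oas1c*, 1.29 to 1.49 for *Oas1b* and 3.36 to 3.47 for *Oasl1*, and over all alternatives *Oas3* ranged from 2.92 to 3.10. *Cited2* was at -3.19 to -3.03 without single libraries, and the ratio of the summed FPKM at 5.16 to 5.44. Median-ratio scaling moved that ratio to 5.66 and changed the balance of calls over all genes from 1950 higher and 4044 lower (32.5% higher) to 2696 and 2490 (52.0% higher). The median log2 fold change was then -0.0069. It left *Abce1* as 1 higher gene of the oligoadenylate list, 1 sensor lower (also 1 after quantile normalization), 1 signaling gene lower (also 1 without the variance trend) and 2 genes near the synthetases higher. Of those nearby genes 3 were higher without a filter, 0 with a mean FPKM of at least 5, where *Gm13822* was not tested, and 1 to 2 without single libraries. Without a filter 1 interferon gene, *Ifnb1*, was higher, a call that gives no support because no control library held a fragment of it. Changes of sign were found for *Pde12*, at 0.017 after quantile normalization, 0.048 after median-ratio scaling and -0.063 to 0.0035 without single libraries. *Socs3* was at 0.018, 0.029 and -0.15 to 0.075 under the same settings, and *Irf8* at 0.081 after median-ratio scaling and -0.052 to 0.016 without single libraries. The labels do not say whether same-numbered replicates were pairs. Correlations of their deviations were 0.0078 to 0.040, and not every library was closest to its own number. With 3 libraries per group these values cannot decide whether replicates were paired. A replicate block gave 5708 calls against 5994 and changed no call of a synthetase gene. Limma-voom on recovered fragments gave 5860 calls. Fragment numbers under about 10 per library limit *Ifnb1* and the antisense genes.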

Other observations

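The 16-base run with overlapping ISRE matches occurred before *Apol9a* and *Apol9b*, a similar pair of apolipoprotein L genes on chromosome 15, besides the *Oas1* genes. *Apol9a* was counted as 0, 2 and 2 fragments in control and 50, 31 and 38 in CITED2-deficient libraries. *Apol9b* was counted as 2, 3 and 1 fragments in control and 115, 91 and 128 in CITED2-deficient libraries. The CITED2-deficient libraries were deeper, so fragment numbers overstate the difference. In FPKM, which is scaled to depth, every CITED2-deficient library exceeded every control library for both genes. The same held for 3275 of the 22248 listed genes. No test is given, and a link between the run and these values was not tested. Both genes were named after their values were seen, and how fragments that match both were handled is not stated.

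*Oas1b* RNA was 2.86 times as abundant in CITED2-deficient as in control BMDMs although its annotation is that of a polymorphic pseudogene, and *Oas1c*, which shares 120 bases between their starts, was 2.15 times as abundant.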
